A study of Homo sapiens with 4 samples.

Results

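S100 proteins are small calcium sensors with a pair of EF-hand loops. They work as dimers, bind target proteins when calcium rises and are found only in vertebrates. Most of their genes lie together on the long arm of human chromosome 1, and several are known for raised levels in papillary thyroid carcinoma. The genes described are S100A2, S100A3, S100A4, S100A6, S100A10, S100A11, S100A13, S100A14, S100A16 and S100P, 10 of the 58884 Ensembl gene IDs in the table. They were picked by symbol, with the levels in all libraries and the lower S100A11 at 40 °C in both lines known. Levels and differences between temperatures are therefore given as a description, with no test.

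Polyadenylated RNA of the papillary thyroid carcinoma lines B-CPAP and TPC-1 was sequenced in 4 libraries, to ask how transient heat changes thyroid cancer cells. The groups were B-CPAP at 40 °C, B-CPAP at 37 °C, TPC-1 at 40 °C and TPC-1 at 37 °C, with 1 library each. Flasks were submerged in both arms, so the 37 °C cells shared that handling. The length of exposure stands as 15 min, 20 min and 24 h in different labels. Each value is TPM, reads per base of transcript as a share of the whole library, and depth was estimated at 20704722 to 24466576 reads per library. Mitochondrially encoded genes took 23.9% of TPM in B-CPAP at 40 °C against 22.01% at 37 °C, and 19.9% in TPC-1 at 40 °C against 16.8% at 37 °C. Of 6 thyroid follicular markers, PAX8 stood at 98.9 to 284.4 TPM, FOXE1 at 5.95 to 9.70 TPM and TG at 0.12 to 0.75 TPM, while SLC5A5 was at 0 in every library and TSHR reached at most 0.01 TPM. The epithelial keratins KRT8 and KRT18 were present at 138.9 TPM or more. KRT7 had 588.9 and 754.2 TPM in B-CPAP at 40 and 37 °C and 5.15 and 4.84 TPM in TPC-1, KRT19 stood at 0.06 to 1.42 TPM, and EPCAM and CDH1 reached at most 1.99 and 0.04 TPM. The 6 leukocyte and myeloid markers summed to 0.43 to 1.505 TPM, with PTPRC, CD3E and MS4A1 at 0. The 4 endothelial markers summed to 0.99 to 1.64 TPM. The 6 fibroblast markers summed to 42.1 and 33.9 TPM in B-CPAP at 40 and 37 °C, and to 2.87 and 2.98 TPM in TPC-1.

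Both lines carried 8 of the 10 genes, and S100A14 and S100P were at or near 0. S100A11, S100A10 and S100A6 were each at 1357 TPM or more in every library. Together the 10 genes made up 0.744% of all TPM in B-CPAP at 40 °C, 0.825% in B-CPAP at 37 °C, 0.837% in TPC-1 at 40 °C and 0.977% in TPC-1 at 37 °C. B-CPAP ranked S100A6 first, then S100A11, S100A10, S100A2, S100A16, S100A4, S100A13 and S100A3, at both temperatures. TPC-1 ranked S100A11 first, then S100A10, S100A6, S100A16, S100A2, S100A13, S100A4 and S100A3. S100A4 and S100A3 in TPC-1 were the sole neighbours in either order whose ratio could not be told from 1 by counting error: the ratio was 1.04 at 40 °C (95% interval 0.647 to 1.68) and 1.27 at 37 °C (0.852 to 1.92). Such intervals are exact (Clopper-Pearson), rest on reads recovered from the TPM values and cover counting error only.

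**Figure D1:**
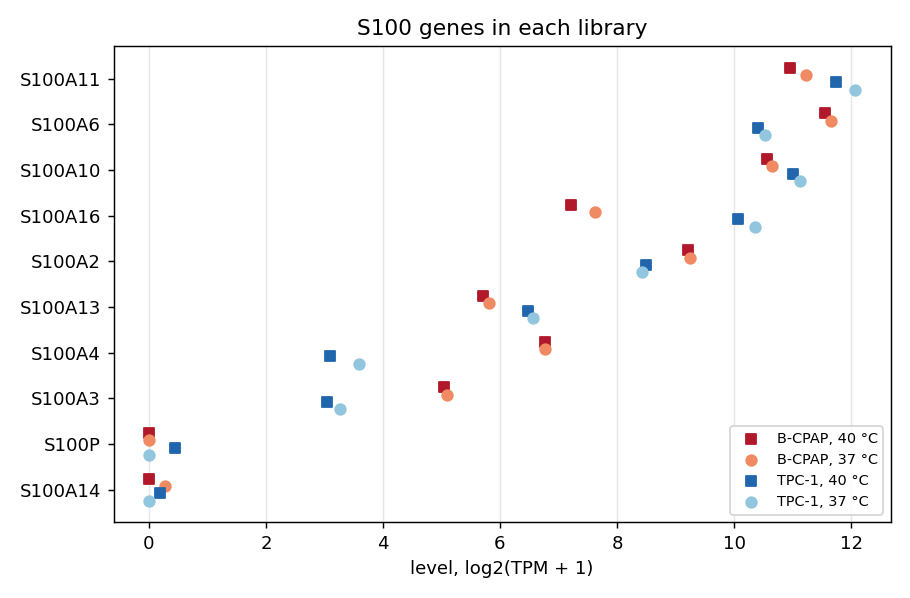
Level of each S100 gene as log2(TPM + 1) in each of the 4 libraries, with 1 point per library and genes ordered by mean TPM. S100A16, S100A4 and S100A3 show the widest gaps between B-CPAP (red) and TPC-1 (blue), and S100P and S100A14 lie at or near 0.

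S100A11 (ENSG00000163191, GRCh38 chromosome 1, 152032506 to 152047907, minus strand), which binds annexin A1 and takes part in membrane repair, had 1979.9 and 2399.9 TPM in B-CPAP at 40 and 37 °C. The TPC-1 library at 40 °C had 3431 TPM and that at 37 °C 4299 TPM, and the gene was among the 31 most abundant of all gene IDs in both TPC-1 libraries. Its 8 listed pseudogenes were at 0 in every library. S100A10 (ENSG00000197747, 151982915 to 151994390), the calcium-insensitive ligand of annexin A2 that helps to dock plasminogen at the cell surface, had 1519 and 1611 TPM in B-CPAP at 40 and 37 °C, and 2046 and 2237 TPM in TPC-1. The calcyclin gene S100A6 (ENSG00000197956, 153534599 to 153536244) had 3007 and 3242 TPM in B-CPAP at 40 and 37 °C, and 1357 and 1475 TPM in TPC-1. At each temperature B-CPAP thus lay below TPC-1 for S100A11 and S100A10 and above it for S100A6.

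S100A16 (ENSG00000188643, 153606886 to 153613145), a widely expressed member, had 147.2 and 195.2 TPM in B-CPAP at 40 and 37 °C, and 1077 and 1304 TPM in TPC-1. S100A2 (ENSG00000196754, 153561108 to 153567890), known from epithelial nuclei, had 590.3 and 608.1 TPM in B-CPAP at 40 and 37 °C, and 359.6 and 344.1 TPM in TPC-1. S100A13 (ENSG00000189171, 153618787 to 153631360), which serves the release of fibroblast growth factor 1 from cells, had 51.2 and 55.2 TPM in B-CPAP at 40 and 37 °C, and 87.9 and 94.2 TPM in TPC-1. S100A16 and S100A13 were thus lower in B-CPAP and S100A2 higher, at each temperature. S100A13 shares 10.6% of its exonic bases with S100A1 on the opposite strand, and since the kit does not mark strand the reads there cannot be told apart. S100A1 itself stood at 0.19 to 2.67 TPM. Of the exonic bases of S100A13, 24.2% also lie in a transcript of the same strand (ENSG00000271853), which stood at 0.14 to 1.04 TPM.

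S100A4 (ENSG00000196154, 153543613 to 153550136), which binds non-muscle myosin IIA and is known for its part in cell motility, had 108.3 and 107.7 TPM in B-CPAP at 40 and 37 °C, against 7.50 and 11.01 TPM in TPC-1. These TPC-1 values rest on 41 and 63 reads. S100A3 (ENSG00000188015, 153547329 to 153549372), a cysteine-rich member known from the hair cuticle, had 32.0 and 33.3 TPM in B-CPAP at 40 and 37 °C, and 7.20 and 8.65 TPM in TPC-1. It lies within the annotated span of S100A4, with no exonic base in common, and like S100A4 it was higher in B-CPAP at each temperature.

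S100A14 (ENSG00000189334, 153614255 to 153616986), an epithelial member that neighbours S100A16, had 0 and 2 reads in B-CPAP at 40 and 37 °C and 1 and 0 reads in TPC-1, which is at most 0.21 TPM. A count of 0 allows up to 0.336 TPM in the B-CPAP library at 40 °C and 0.388 TPM in the TPC-1 library at 37 °C, taking 3 reads as the limit. S100P (ENSG00000163993, chromosome 4, 6693069 to 6697170), named for placenta and a partner of ezrin, was listed at 0 in 3 libraries and at 0.37 TPM in TPC-1 at 40 °C. Neither gene passed the filter of a mean of 1 TPM, so 8 of the 10 entered the tests.

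Of the 11 other S100 genes, 7 were at 0 in every library. They included S100A8, S100A9 and S100A12, the calgranulins of myeloid cells, and S100A7, psoriasin of stressed keratinocytes. S100A5 stood at 2.74 to 4.62 TPM, and S100B and S100G at no more than 0.16 and 0.59 TPM. Along chromosome 1, 6 of the 7 genes at 0 formed a block between S100A11 and S100A6.

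**Figure D2:**
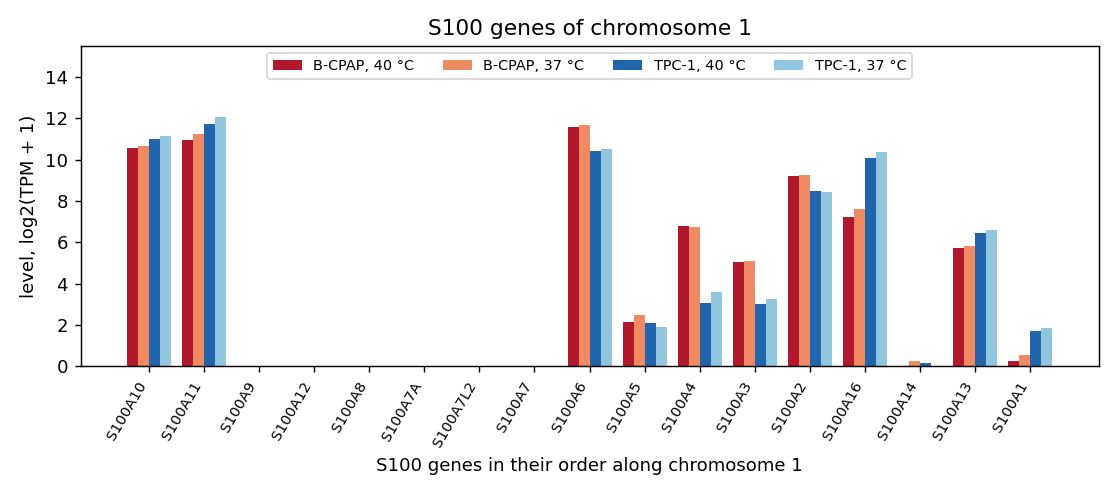
Level as log2(TPM + 1) of the 17 S100 genes of chromosome 1, set out in chromosomal order with 1 bar per library. The 6 genes from S100A9 to S100A7 are at 0. The bars of B-CPAP (red) exceed those of TPC-1 (blue) at S100A6, S100A4, S100A3 and S100A2, and slightly at S100A5. They fall below them at S100A10, S100A11, S100A16, S100A13 and S100A1.

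Start regions are shown for the gene described at 40 °C (S100A11), for the most abundant gene of B-CPAP (S100A6), for the pair with the widest gaps between the lines (S100A4, S100A16) and for its neighbour at or near 0 (S100A14). Each is the stretch of 250 bases before the RefSeq start on GRCh38.p14, read 5′ to 3′ on the minus strand of chromosome 1. The regions are chr1:152037005-152037254 for S100A11, chr1:153535992-153536241 for S100A6, chr1:153545807-153546056 for S100A4, chr1:153613138-153613387 for S100A16 and chr1:153616326-153616575 for S100A14. Capitals mark matches on either strand to any of 5 motifs. The TATA box was searched as TATAAA and the CCAAT box by the letters of its name. The GC box was searched as GGGCGG, and the AP-1 site as TGANTCA. A pair of heat shock units was searched as GAANNTTC or as TTCNNGAA.
S100A11: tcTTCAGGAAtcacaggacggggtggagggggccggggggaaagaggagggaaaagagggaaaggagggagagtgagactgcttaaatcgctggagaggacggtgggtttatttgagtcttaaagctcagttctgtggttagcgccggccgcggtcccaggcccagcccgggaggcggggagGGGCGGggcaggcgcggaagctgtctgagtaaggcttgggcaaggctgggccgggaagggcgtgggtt
S100A6: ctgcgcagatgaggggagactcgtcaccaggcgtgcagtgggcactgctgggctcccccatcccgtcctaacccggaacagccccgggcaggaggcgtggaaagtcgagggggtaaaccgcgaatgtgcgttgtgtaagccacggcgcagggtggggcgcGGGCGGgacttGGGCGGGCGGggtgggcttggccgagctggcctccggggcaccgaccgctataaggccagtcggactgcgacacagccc
S100A4: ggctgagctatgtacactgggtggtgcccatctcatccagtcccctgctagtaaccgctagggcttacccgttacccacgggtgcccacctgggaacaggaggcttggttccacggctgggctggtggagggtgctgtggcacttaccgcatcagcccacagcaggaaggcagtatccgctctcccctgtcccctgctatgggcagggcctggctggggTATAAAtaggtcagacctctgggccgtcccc
S100A16: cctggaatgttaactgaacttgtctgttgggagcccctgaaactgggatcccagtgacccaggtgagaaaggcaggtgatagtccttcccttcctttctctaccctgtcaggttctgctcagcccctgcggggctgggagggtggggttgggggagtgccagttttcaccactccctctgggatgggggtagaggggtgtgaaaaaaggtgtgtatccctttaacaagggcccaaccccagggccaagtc
S100A14: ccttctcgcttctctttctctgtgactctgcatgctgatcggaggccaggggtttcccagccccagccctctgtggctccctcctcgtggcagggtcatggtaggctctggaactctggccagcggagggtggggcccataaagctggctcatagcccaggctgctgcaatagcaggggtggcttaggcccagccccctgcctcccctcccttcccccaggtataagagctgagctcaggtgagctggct
RefSeq promoters were found for all 10 genes. RefSeq lists 3 starts for S100A13 and 2 each for S100A2 and S100A16, and 1 region of each gene was searched. That of S100A13, chr1:153634362-153634611, lies outside the gene span given above. TATAAA stood in those of S100A4 and S100P, and in 10.7% of the 35116 promoters of the table. GGGCGG stood in those of S100A3, S100A6, S100A10, S100A11 and S100A13 (42.6% of all promoters), with overlapping copies in S100A6. TGANTCA stood in S100A2 and S100A3 (6.57%) and CCAAT in S100A3 (32.0%). The heat shock pair stood in S100A11 and S100P (11.6%), and none of these motifs stood in S100A14 or S100A16. CpG dinucleotides numbered 24 in S100A6 and S100A10 and 15 in S100A11 and S100A13, against 7 in S100A4, 4 in S100A2, S100A3, S100A14 and S100P, and 1 in S100A16. The median of all promoters was 11. A match is a string of letters and not a bound site.

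B-CPAP differed from TPC-1 in all 8 tested genes, with S100A2, S100A3, S100A4 and S100A6 higher and S100A10, S100A11, S100A13 and S100A16 lower. Differences are on the log2(TPM + 1) scale with standard errors (SE), from limma with temperature as a block, two-sided, with Benjamini-Hochberg adjustment over all 14912 genes averaging 1 TPM or more. Each line had 2 libraries, and the fit left 1 residual degree of freedom per gene. In limma the variance of each gene is drawn towards that of genes of like level. The p-values therefore set the line difference against how far line differences vary between the temperatures, in part over other genes. They hold no spread between cultures. Of all genes tested, 29.9% passed an adjusted p of 0.05 as higher in B-CPAP and 32.8% as lower. Calls in either direction came to 62.7% of all genes, so that 8 of 8 stands against a high background. The levels in both lines were also known when the genes were picked. Nothing is therefore read from how many of the 8 passed. A call together with a 2-fold difference came to 4 of 8 (S100A3, S100A4, S100A6, S100A16), against 32.9% of all genes. The median difference was 0.16 over the 8 genes and -0.05 over all genes tested.

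S100A4 was 3.43 higher in B-CPAP (SE 0.15, limma adjusted p = 9.64e-05). Its TPM ratio of B-CPAP to TPC-1 was 14.4 at 40 °C (counting interval 10.5 to 20.3) and 9.78 at 37 °C (7.56 to 12.9). S100A3, inside the same locus, was 1.92 higher (SE 0.13, limma adjusted p = 0.00028). S100A6 was 1.14 higher (SE 0.05, limma adjusted p = 8.94e-05), with nearly the same ratio at each temperature, 2.22 at 40 °C and 2.20 at 37 °C. S100A2 was 0.77 higher (SE 0.07, limma adjusted p = 0.000578). By size of difference S100A4 lay within the top 3.16% of genes tested, S100A16 within 5.55% and S100A3 within 12.1%. The rest ran from 28.8% (S100A6) to 63.7% (S100A10).

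On the lower side, S100A16 was lower in B-CPAP (log2 difference -2.80, SE 0.07, limma adjusted p = 2.74e-05), a TPM ratio of 0.137 at 40 °C and 0.150 at 37 °C. S100A11 differed by -0.82 (SE 0.05, limma adjusted p = 0.000209) and S100A13 by -0.76 (SE 0.09, limma adjusted p = 0.00137). The smallest difference was that of S100A10, at -0.45 (SE 0.05, limma adjusted p = 0.00137). Direction held at both temperatures for each of the 8 genes. With any 1 library left out, which needs a fit without the block, S100A10 and S100A11 no longer passed (limma adjusted p 0.128 to 0.219 and 0.0779 to 0.178). Without either TPC-1 library S100A2 and S100A13 did not pass. S100A3, S100A4 and S100A16 passed in each of these fits, and S100A6 did so close to the limit, with a difference of 1.08 to 1.20.

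**Figure D3:**
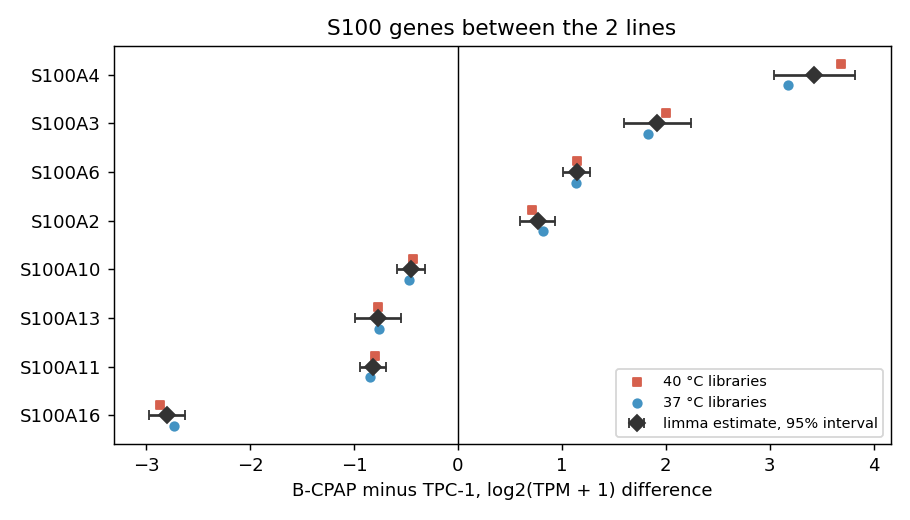
Difference between B-CPAP and TPC-1 in log2(TPM + 1) for the 8 tested S100 genes: diamonds and bars give the limma estimate with its 95% interval, and squares and circles the libraries at 40 °C and 37 °C. Values run from -2.80 (S100A16) to 3.43 (S100A4), and no interval includes 0.

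The sides fell into runs along the chromosome. S100A6, S100A4, S100A3 and S100A2 follow one another, apart from S100A5, and all were higher in B-CPAP. S100A5 was 0.32 higher, without passing (SE 0.22, limma adjusted p = 0.253). S100A16 and S100A13, which come next with S100A14 between them, were lower in B-CPAP, and so were S100A10 and S100A11 at the other end. S100A1 beside them had 0.19 and 0.49 TPM in B-CPAP at 40 and 37 °C and 2.23 and 2.67 TPM in TPC-1; it passed the filter through TPC-1 alone, so no test of it is given. The order was noticed after the values were seen and was not tested. In a comparison likewise chosen after the values were seen, the 4 genes with at least 15 CpG before the start (S100A6, S100A10, S100A11, S100A13) differed between the lines by 0.45 to 1.14 in size, and the 4 with at most 7 CpG (S100A2, S100A3, S100A4, S100A16) by 0.77 to 3.43. The CpG counts are those of 1 start per gene, though S100A2, S100A13 and S100A16 have more.

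At 40 °C most of the 8 tested S100 genes stood at or a little below their 37 °C level. In TPC-1 the ratio was 0.681 for S100A4, on 41 and 63 reads, and 1.04 for S100A2. None was 2-fold lower (1.13% of all genes tested in B-CPAP and 1.23% in TPC-1) or 2-fold higher (2.78% and 2.25%). S100A11 and S100A16 were lowest relative to 37 °C over both lines. In B-CPAP, S100A11 had a 40 °C to 37 °C ratio of 0.825 (counting interval 0.802 to 0.848), and in TPC-1 one of 0.798 (0.780 to 0.817). For S100A16 the ratio was 0.754 in B-CPAP (0.709 to 0.802) and 0.826 in TPC-1 (0.805 to 0.847). With 1 library at each temperature the difference has no replicate check, and the intervals compare libraries, not conditions. In bulk RNA, fewer cells of a kind and less of the transcript per cell cannot be told apart.

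S100A6 and S100A10 differed by less. The ratio of S100A6 was 0.927 in B-CPAP (0.910 to 0.945) and 0.920 in TPC-1 (0.892 to 0.949). That of S100A10 was 0.943 in B-CPAP (0.919 to 0.968) and 0.915 in TPC-1 (0.893 to 0.938). These 4 genes are the ones whose interval lay below 1 in both lines, beside 11.4% of the genes with a known length. In B-CPAP alone 21.8% of genes had such an interval, and in TPC-1 alone 16.1%. For S100A2, S100A3, S100A4 and S100A13 the interval included 1 in both lines. Their ratios in B-CPAP were 0.971, 0.959, 1.006 and 0.929, in that order. In TPC-1 they were 1.04, 0.833, 0.681 and 0.933, where S100A4 and S100A3 rest on 35 to 63 reads per library.

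**Figure D4:**
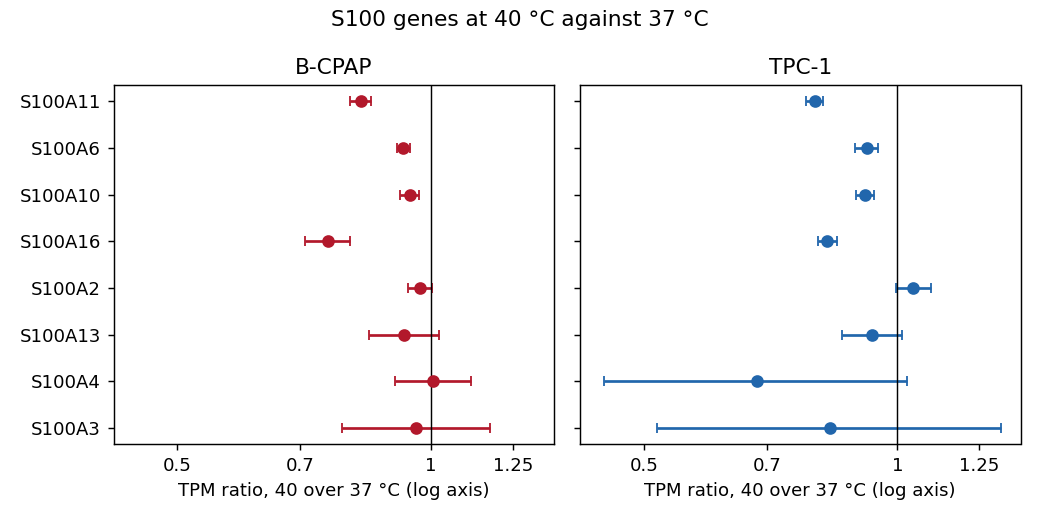
TPM ratio of 40 °C over 37 °C in B-CPAP and TPC-1 for the 8 tested S100 genes, on a log axis, with exact 95% counting intervals. S100A11, S100A6, S100A10 and S100A16 lie below 1 in both lines, while the wide bars of S100A4 and S100A3 in TPC-1 rest on few reads.

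On the log2(TPM + 1) scale 7 of the 8 tested genes were lower at 40 °C in B-CPAP, where 40.1% of all genes were, and 7 of 8 in TPC-1, where 42.5% were. The same 6 genes were lower in both lines, as 27.1% of all genes were. Nothing is read from these counts, since the temperature contrast served in choosing the genes. By 0.32 or more on the log2 scale, the size used from here on, 1 gene was lower in B-CPAP (S100A16, against 13.2% of all genes) and 2 in TPC-1 (S100A11 and S100A4, against 6.32%). None was that much higher in B-CPAP (30.2% of all genes) or in TPC-1 (14.9%), and none was that much lower (2.08%) or higher (7.69%) in both lines. The median difference of the 8 genes was -0.09 in B-CPAP and -0.18 in TPC-1, beside 0.09 and 0.03 over all genes tested.

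GC content moved with these differences. The 8 genes have transcripts of 54.0 to 60.2% GC, above the median of 48.3% for tested protein-coding genes. The 2176 protein-coding genes within that range, the 8 included, had a median difference of -0.20 in B-CPAP and -0.10 in TPC-1, and 81.7% and 72.8% of them were lower at 40 °C. Of the 406 among them that averaged 100 TPM or more, 92.9% and 92.4% were lower. Their median difference was -0.25 in B-CPAP (interquartile range -0.32 to -0.16) and -0.16 in TPC-1 (-0.22 to -0.10). S100A11 lay inside that range in B-CPAP and below it in TPC-1, and S100A16 lay below it in both lines. After adjustment for GC content S100A11 differed by -0.17 in B-CPAP and -0.28 in TPC-1, where it had differed by -0.28 and -0.33. S100A16 then differed by -0.23 and -0.19 (-0.40 and -0.28 before). S100A6 turned to 0.14 in B-CPAP and 0.01 in TPC-1, and S100A10 to 0.08 in B-CPAP, with -0.05 in TPC-1. S100A2, S100A3 and S100A13 also turned positive in B-CPAP, at 0.06, 0.16 and 0.03. After the adjustment 2 of the 8 genes were lower at 40 °C in B-CPAP and 6 in TPC-1, in place of 7 in each, and their median was 0.07 in B-CPAP and -0.09 in TPC-1. The part of GC content in the lower values was not tested beyond this adjustment. With mitochondrially encoded genes, whose share was larger at 40 °C, taken out of the total, S100A11 in TPC-1 differed by -0.27. S100A11 in B-CPAP also moved with the scaling, to -0.46 when libraries were centred on their median and to -0.18 under quantile normalization.

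**Figure D5:**
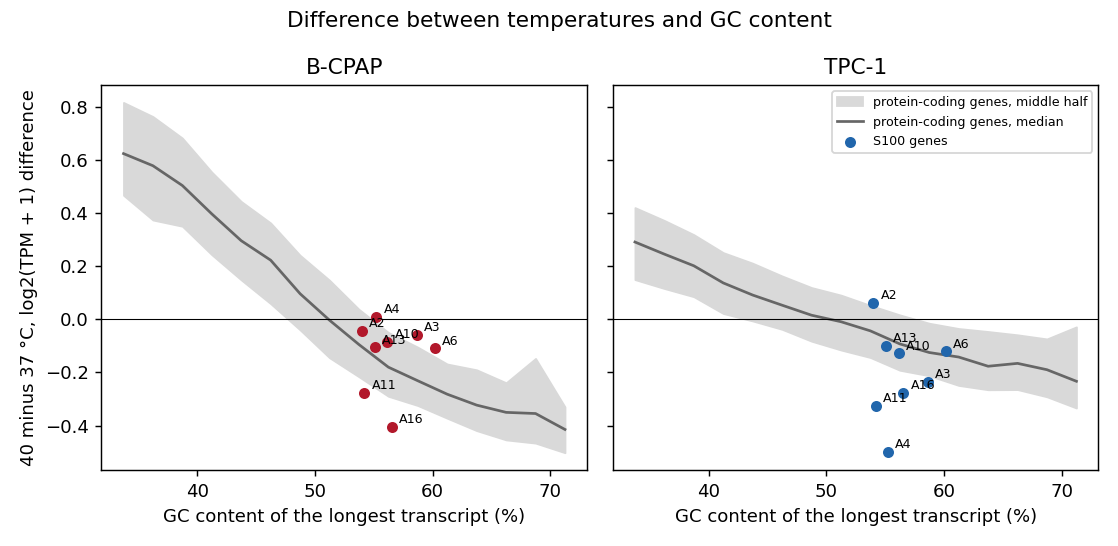
Difference between 40 °C and 37 °C in log2(TPM + 1) against the GC content of the longest transcript, for B-CPAP and TPC-1. The line and band give the median and interquartile range of tested protein-coding genes in bins of 2.5 percentage points, and points are S100 genes without their S100 prefix. S100A11 and S100A16 lie below the band in both lines. The band holds genes of all levels, and S100A11 in B-CPAP lies inside the interquartile range of the abundant genes of like GC content. S100A3 and S100A4 lie below it in TPC-1 and above it in B-CPAP, where S100A6 is also above, and S100A2 lies just above it in TPC-1.

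By the distance between values centred over the 4 libraries, the genes most like S100A11 among 2822 protein-coding genes averaging 50 TPM or more were TIMP1 (distance 0.03 on the log2 scale), BSG (0.03), LGALS1 (0.08), GUK1 (0.08) and UBL4A (0.08). TIMP1 had 351.7 and 422.2 TPM in B-CPAP at 40 and 37 °C and 607.4 and 778.7 TPM in TPC-1. All 5 have a GC content of 57.8 to 61.6%, above the 54.2% of S100A11. They were picked by their values in these same 4 libraries, so their lower level at 40 °C is no separate result.

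The annexins are calcium-dependent membrane proteins of which several bind S100 dimers. Of 9 tested, limma called 7 lower and 0 higher in B-CPAP, beside 32.8% and 29.9% of all genes. All gene lists were chosen with earlier results of these data known. Nothing is therefore read from this count or from those of the lists below. Calls of list genes were not repeated under the alternative settings. ANXA2, the partner of S100A10, had 953.5 and 917.2 TPM in B-CPAP at 40 and 37 °C and 1442 and 1503 TPM in TPC-1 (log2 difference -0.65, SE 0.06, limma adjusted p = 0.000673). ANXA6 differed by -1.31 (SE 0.06, limma adjusted p = 0.000127), and ANXA5 by -0.11 without passing (limma adjusted p = 0.182). Between temperatures 1 annexin was lower by 0.32 or more and 1 higher in B-CPAP, and 0 lower and 2 higher in TPC-1. Of all genes, 13.2% were that much lower and 30.2% higher in B-CPAP, and 6.32% and 14.9% in TPC-1. The temperature counts of the lists below stand beside the same shares. The ratio of ANXA2 was 1.04 in B-CPAP and 0.959 in TPC-1, beside the 0.943 and 0.915 of S100A10.

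Of the 5 tested genes of the plasminogen system, on which S100A10 acts, 3 were called higher in B-CPAP and 1 lower (29.9% and 32.8% of all genes). PLAU, which encodes urokinase, was lower in B-CPAP by a difference of -0.28 (SE 0.06, limma adjusted p = 0.0112), and its receptor gene PLAUR differed by -0.02 without passing (limma adjusted p = 0.832). No gene of this list was 0.32 or more apart between temperatures.

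Among 5 genes of proposed S100 receptors 1 was called higher and 3 lower in B-CPAP (29.9% and 32.8% of all genes). The higher call and 1 of the lower ones are of genes that passed the filter through 1 line alone and had to differ. BSG, which encodes basigin, a receptor proposed for S100A8 and S100A9, had 367.4 and 450.7 TPM in B-CPAP at 40 and 37 °C, and 634.8 and 818.1 TPM in TPC-1. The adhesion gene ALCAM differed by -2.11 (SE 0.13, limma adjusted p = 0.000219), and the scavenger receptor gene CD36 was listed at 0 in both TPC-1 libraries and at 16.04 and 9.09 TPM in B-CPAP at 40 and 37 °C. At 40 °C, 2 of the 5 were higher by 0.32 or more and 0 lower in B-CPAP, and 1 was higher and 1 lower in TPC-1.

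Of 13 tested intracellular partners, 3 were called higher and 9 lower in B-CPAP (29.9% and 32.8% of all genes). MYH9, the myosin bound by S100A4, had 791.7 and 858.8 TPM in B-CPAP at 40 and 37 °C and 916.5 and 977.6 TPM in TPC-1 (log2 difference -0.20, SE 0.06, limma adjusted p = 0.0283). Centring on the median moved the median line difference of all genes by 0.13, and MYH9 was not refitted under it. AHNAK, which forms a complex with S100A10 and annexin A2, differed by -1.22 (SE 0.10, limma adjusted p = 0.000569), and EZR, the ezrin gene, by -0.89 (SE 0.06, limma adjusted p = 0.000299). At 40 °C, 6 of the 13 were higher by 0.32 or more in B-CPAP (30.2% of all genes) and 2 in TPC-1 (14.9%). In either line 0 were lower by that much. Of 14 other EF-hand genes 3 were called higher and 6 lower in B-CPAP, beside the same shares of all genes. In this list the calmodulin gene CALM3 differed by -1.18 (SE 0.06, limma adjusted p = 0.000141) and the calpain subunit gene CAPNS1 by -0.72 (SE 0.06, limma adjusted p = 0.000573), and CALU, a calumenin of the secretory pathway, was 2.02 higher (SE 0.11, limma adjusted p = 0.000176). At 40 °C, 2 of the 14 were lower by 0.32 or more and 3 higher in B-CPAP, and 0 lower and 4 higher in TPC-1.

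The epidermal differentiation complex lies beside the silent block of S100 genes, and 14 of its 16 other listed genes fell under the filter, with HRNR at no more than 0.37 TPM. IVL, which encodes the cornified envelope protein involucrin, had 108.1 and 107.9 TPM in B-CPAP at 40 and 37 °C and was listed at 0 in both TPC-1 libraries. FLG, the filaggrin gene, went the other way, with 5.37 and 4.02 TPM in B-CPAP at 40 and 37 °C and 74.9 and 58.5 TPM in TPC-1 (log2 difference -3.57, SE 0.12, limma adjusted p = 5.01e-05). At 40 °C FLG was higher by 0.32 or more in both lines. Among 8 tested neighbours of the S100 cluster that are not S100 genes, 1 was called higher and 4 lower in B-CPAP (29.9% and 32.8% of all genes). The higher one passed the filter through B-CPAP alone. ILF2 stood at 608.4 to 627.5 TPM in all libraries, SNAPIN differed by -0.69 (SE 0.08, limma adjusted p = 0.00151) and CRTC2 by -0.64 (SE 0.09, limma adjusted p = 0.00279). At 40 °C, 1 of the 8 was lower by 0.32 or more in B-CPAP, none was lower in TPC-1 and none was higher in either line.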

How the data were processed

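Polyadenylated RNA was extracted with RNeasy Plus and sequenced from TruSeq RNA Library Prep Kit v2 libraries, which do not mark strand, per the labels' protocols. Trimmomatic 0.38, featureCounts 2.0.0 and GRCh38 are named in the submitters' processing notes. Which aligner and annotation release were used is not given in the sources used here. Values deposited by the authors are TPM for 58884 Ensembl gene IDs in 4 libraries. GENCODE 29 gave coordinates, exon lengths and GC content for 58611 IDs.

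TPM times exon length fell on steps of 1 read: 90.6 to 92.1% of values up to 20 reads were whole to within 0.02 reads, and the reads used for intervals come from these steps. For 4 of the 8 tested genes (S100A3, S100A4, S100A10, S100A11) the GENCODE length did not give whole reads, and the smallest length that did (within 0.03 reads) was used. The search needed more than 20 reads in a library, so no length could be found for S100A14 and S100P and their GENCODE lengths were kept. At that length S100P came to 2.72 reads in TPC-1 at 40 °C. Intervals and limits cover counting error only. The 10 genes and all gene lists were chosen with earlier results of these data known. Other S100 genes were named by level, list genes as the 3 of highest mean TPM in each list, and like genes as the 5 nearest to S100A11. Results of 2 list genes are not reported here.

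Lines were compared with limma 3.58.1 (R 4.3.3) on log2(TPM + 1) for genes averaging 1 TPM or more, with temperature as a block and an intensity trend, after the code was tested on simulated data. With 1 library per line and temperature, and no statement of separate cultures, p-values hold no spread between cultures. They set the line difference against how far line differences vary between the temperatures, in part over other genes. Any difference in heat response between the lines enters that spread, which may also be technical. Temperatures were compared without a test. Alternatives changed the pseudocount (0.1 or 5), the filter, the scaling, the block and the trend, adjusted for GC content, or left out 1 library.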

Additional observations from a re-analysis of the deposited data

Results flagged for a closer look

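Values at 40 °C lay on opposite sides of those at 37 °C in the lines for 3 genes, and these differences between the lines were not tested. For S100A2 the difference between temperatures in log2(TPM + 1) was -0.04 in B-CPAP and 0.06 in TPC-1, a gap of -0.11. The counting interval of S100A2 included 1 in both lines, and its sides depended on the scaling. Centred on the median it was lower in both lines (-0.23 in B-CPAP and -0.03 in TPC-1). After adjustment for GC content it was higher in both (0.06 and 0.11). S100A4 differed by 0.01 in B-CPAP and by -0.50 in TPC-1, a gap of 0.51, with 41 and 63 reads behind the TPC-1 values. Centred on the median S100A4 too was lower in both lines (-0.18 in B-CPAP and -0.59 in TPC-1). For S100A14 the gap was -0.46, and no library had more than 2 reads of it.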

How the results depend on the processing

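All 8 calls between the lines held under the 11 alternatives that kept the 4 libraries, which covered pseudocount, filter, scaling, block and trend. Genes of the other lists were not put through these alternatives, which matters most for small differences such as those of PLAU (-0.28) and MYH9 (-0.20). With 1 library left out, the number of S100 genes called lower in B-CPAP was 1 to 2 in place of 4, and the calls over all genes came to 2911 to 5719 in place of 9349; these fits have fewer samples and no block, and the lone library of a line is assumed to vary like the others. Centring on the median moved the median of all genes by -0.18 (B-CPAP) and -0.09 (TPC-1) between temperatures and by 0.13 between lines. Under it S100A11 differed between temperatures by -0.46 in B-CPAP and -0.42 in TPC-1, and 2 and 4 S100 genes were lower by 0.32 or more, in place of 1 and 2. Quantile normalization gave S100A11 -0.18 and -0.28 and turned S100A6 in B-CPAP to 0.0884. Adjustment for GC content gave S100A11 -0.17 and -0.28, left 0 and 1 genes lower by that much, and turned S100A6 to 0.14 in B-CPAP and 0.00780 in TPC-1 and S100A10 to 0.0769 in B-CPAP. Without mitochondrially encoded genes S100A11 differed by -0.27 in TPC-1, where 1 gene was lower by that much. The cause of these shifts was not tested. No replicate numbers could serve for pairing, since each group has a single library; the comparison of lines had temperature as its block, and all 8 calls held without it. Depth limits S100A14, S100P and the TPC-1 values of S100A3 and S100A4.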
